A study of Mus musculus with 24 samples.

Results

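A set of 44 genes of DNA repair was followed through 24 mouse tumour libraries. The genes were listed by name for their place in homologous recombination, the Fanconi pathway, end joining, mismatch repair, excision repair or the signalling around broken DNA, and the rule that picks them uses no measured value, though the list was drawn up with earlier results of these data known. Each of the 44 matched 1 of the 55335 gene IDs in the files, and none was at 0 in any library. The tumours came from MC38, a colon carcinoma line, or B16, a melanoma line, and their cells were either parental (CHEK2-WT, here WT) or CHEK2-knock out (here KO). The mice received PBS or anti-PD-1, an antibody against an inhibitory receptor of T cells. Each of the 8 combinations of line, genotype and treatment had 3 libraries of total RNA from whole tumour tissue. The labels state neither the clone nor the edit of the KO cells, nor the age or strain of the mice, and the design text gives 3 per treatment without saying that each library is another mouse. The p-values therefore measure the spread between libraries, part of which may be technical. Chek2 encodes CHK2, a checkpoint kinase that is switched on by broken DNA and phosphorylates repair and cell cycle proteins, BRCA1 among them.

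Cells mend a DNA double-strand break by 2 main routes. In homologous recombination the ends are resected and the sister chromatid is copied, with the help of BRCA1, PALB2 and BRCA2, whereas in end joining the Ku proteins hold the ends for ligation. The Fanconi proteins open crosslinks between the strands, excision and mismatch repair replace damaged or mispaired bases within 1 strand, and the ligases RNF8 and RNF168 mark chromatin beside a break. Many of these genes are transcribed mostly in dividing cells, under E2F factors.

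The values were FPKM, fragments per kilobase of transcript scaled to sequencing depth, taken as such from their properties. Depth was estimated from the smallest steps between values at 13240000 to 23880000 reads per library. Chek2 itself was called lower in the KO tumours of 3 of the 4 pairs. In MC38 it stood at 6.14, 5.15 and 4.61 FPKM in WT under PBS and at 2.2, 2.4 and 1.92 in KO, and under anti-PD-1 at 5.72, 5.59 and 5.01 against 3.23, 3.06 and 3.37 (log2 differences of -0.99 and -0.61, limma adjusted p = 0.000178 and 0.00375, with the test described below). In B16 it stood at 7.7, 7.93 and 7.17 against 5.68, 5.64 and 5.67 under PBS, and at 7.52, 9.29 and 7.87 against 6.5, 6 and 6.75 under anti-PD-1 (-0.37 and -0.31, limma adjusted p = 0.106 and 0.0154). The KO and WT libraries did not overlap in any of these 4 pairs, but the B16 KO libraries kept at least 5.64 FPKM of Chek2. Of the melanoma markers, Mlana ranged from 557 to 1038 FPKM in B16 and did not pass 0.171 in MC38. Of the epithelial markers of a colon tumour, Cdx2 was at 0 in every MC38 library and Vil1 did not pass 0.0944 FPKM there. Epcam ranged from 0 to 5.59, Krt8 from 0.0972 to 9.44, Krt18 from 0 to 13.9 and Cdh1 from 0.616 to 3.01. In B16, Vil1 was higher, at 1.01 to 1.91, and Cdh1 lower, at 0.14 to 0.425.

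The 3 B16 KO libraries under anti-PD-1 stood apart from the other 9 of that line. Their FPKM summed to 398474, 392385 and 375193, against 319980 to 344059 in the others. In them long transcripts were low and short transcripts high: the median deviation from the line's mean (log2) of genes with transcripts over 8000 bases, minus that of genes under 2000 bases, was -0.73, -0.65 and -0.52, against 0.09 to 0.29 in the other 9. Counts of repair genes called in B16 comparisons that use this group are therefore given beside a fit with the transcript length trend of each library removed, an alternative chosen after seeing the data. The values of other genes and gene lists in this group are given without that correction.

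Levels of the repair genes differed widely from gene to gene and little between groups. In MC38 the median FPKM of a gene over 12 libraries ran from 1.04 for Rad54b, a DNA translocase of recombination, to 25.5 for Parp1, the sensor of single-strand breaks. In B16 it ran from 0.842 for Palb2, which bridges BRCA1 and BRCA2, to 43.2 for Xrcc5, which encodes Ku80. Between the highest and lowest of the 4 group means of a line, the median gene differed 1.29-fold in MC38 and 1.36-fold in B16, while its replicates had a coefficient of variation of 9.75% and 10.4%. The highest group mean fell in WT under anti-PD-1 for 25 of the 44 genes in MC38. The lowest fell in KO under anti-PD-1, the group in which long transcripts were low, for 31 of 44 in B16. Neither count was made over all genes, so neither is read as a trait of the repair genes.

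**Figure D1:**
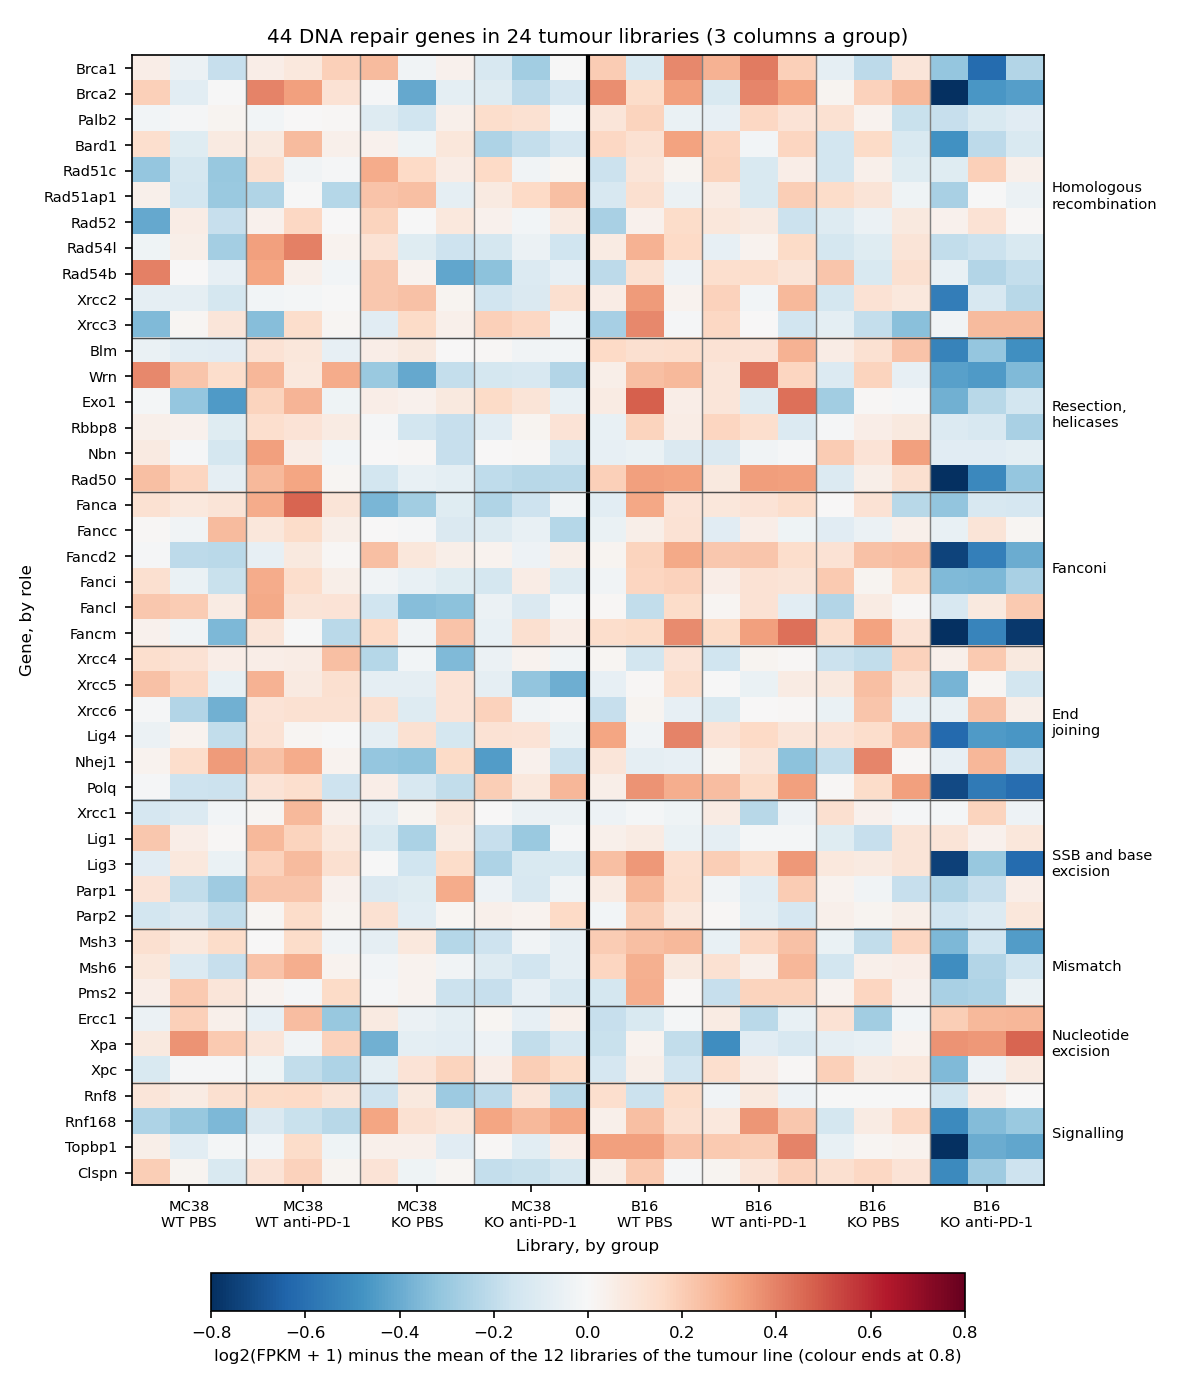
Each row is 1 of the 44 repair genes, ordered by role, and each column 1 of the 24 libraries; colour gives log2(FPKM + 1) minus the mean of the 12 libraries of that tumour line, red for higher and blue for lower. The block at the far right, B16 KO under anti-PD-1, holds the darkest blue cells, at Brca2, Fancm, Topbp1 and Rad50, while Rnf168 is blue in the 6 MC38 WT libraries and red in the 6 MC38 KO libraries.

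The question of the first comparison was how the repair genes differed between tumours labelled KO and WT in mice that received PBS. In MC38, 3 of the 44 were higher in KO (Rnf168, Rad51c and Fancd2) and 5 lower (Wrn, Fancl, Xpa, Fanca and Xrcc4), called at an adjusted p under 0.05 by limma on log2(FPKM + 1), with the Benjamini-Hochberg adjustment over all 14209 genes tested. Of all those genes 23.4% were called either way, so the 8 of 44 are no larger a share than the background. The median log2 difference of the 44 was 0.01, as was that of all genes. Rescaled to equal sums of protein-coding genes, the count was 4 higher and 3 lower, and with only the 6 libraries compared it was 2 higher and 2 lower. Without KO PBS replicate 1 it was 4 genes in all, and without WT PBS replicate 2 it was 5. In these 4 settings 26.6%, 17.7%, 20% and 14.8% of the genes tested were called, in the order given. The first share is of protein-coding genes alone.

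Rnf168 encodes the ubiquitin ligase that spreads the mark on histone H2A to which 53BP1 and BRCA1-BARD1 bind. It stood at 14.9, 14.3 and 13.7 FPKM in MC38 WT under PBS and at 22.5, 19.5 and 19.1 in KO, a log2 difference of 0.48 ± 0.07 (SE; limma adjusted p = 0.00127). Under anti-PD-1 it stood at 16.4, 15.7 and 15.2 in WT and at 22.5, 21.6 and 22.4 in KO (0.47 ± 0.07, limma adjusted p = 0.00271). The 6 KO libraries were all above the 6 WT libraries. The call held in each of the 13 alternatives run on either comparison, and the genotype by treatment interaction was -0.01 ± 0.10 (limma adjusted p = 0.973). The gene lies at chr16:32277459-32301434 on the plus strand of mm10, and no other annotated gene overlaps its exons.

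Wrn, the helicase and exonuclease that is mutated in Werner syndrome, moved the other way. It stood at 8.19, 7.22 and 6.79 FPKM in MC38 WT under PBS and at 4.73, 4.32 and 5.17 in KO, lower by 0.55 ± 0.09 on the log2 scale (-0.55, limma adjusted p = 0.00208). Under anti-PD-1 it stood at 7.49, 6.49 and 7.68 in WT and at 5.39, 5.46 and 5 in KO (-0.39 ± 0.09, limma adjusted p = 0.0192). Again no KO library reached a WT library. The fall under PBS held in all 13 alternatives, and that under anti-PD-1 was lost without WT anti-PD-1 replicate 1 or 3 or KO anti-PD-1 replicate 3. Wrn lies at chr8:33234384-33385527 on the minus strand.

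The Fanconi genes split. Fancl, the ubiquitin ligase subunit of the core complex, stood at 4.56, 4.53 and 4.02 FPKM in MC38 WT and at 3.29, 2.79 and 2.83 in KO under PBS (-0.44 ± 0.09, limma adjusted p = 0.00512), a call that held in all 13 alternatives. Fanca, a scaffold subunit of that complex, was at 4.03, 3.89 and 3.96 against 2.58, 2.8 and 3.31 (-0.35 ± 0.11, limma adjusted p = 0.0343). Fancd2, which the complex ubiquitinates, was higher in KO, at 5.73, 4.84 and 4.81 against 6.99, 6.19 and 5.98 (0.27 ± 0.08, limma adjusted p = 0.0351). So under PBS a substrate was higher while the core subunits Fanca and Fancl were lower. Fanca and Fancd2 were not called without KO PBS replicate 1, without WT PBS replicate 2 or with the compared libraries alone. Under anti-PD-1 Fancd2 had means of 5.8 FPKM in WT and 5.82 in KO and was not called. Fancc, Fanci and Fancm were not called. Of the exon bases of Fancl and Fanca, 13.7% and 10.5% lie under a gene on the opposite strand (Vrk2 and Zfp276), as do 25.1% of those of Lig3 (Rffl) and 16% of those of Fanci (Polg). The strand used in counting is not stated in the sources used here, so reads of such pairs cannot be told apart.

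Rad51c, which acts in the strand exchange step of recombination, was the 1 recombination gene of 11 called under PBS. It stood at 1.43, 1.73 and 1.44 FPKM in WT and at 2.71, 2.36 and 2.14 in KO (0.42 ± 0.10, limma adjusted p = 0.0112), and the call held in all 13 alternatives. Xpa, the scaffold that gathers the excision repair proteins at a lesion, stood at 7.42, 9.21 and 8.2 in WT and at 5.11, 6.54 and 6.52 in KO (-0.40 ± 0.10, limma adjusted p = 0.0196). Xrcc4, the partner of ligase IV in end joining, stood at 3.59, 3.54 and 3.34 in WT and at 2.58, 3.13 and 2.28 in KO (-0.30 ± 0.09, limma adjusted p = 0.0416), and lost its call in 9 of 13 alternatives. Xpa was not called without KO PBS replicate 1, without WT PBS replicate 2 or with the compared libraries alone. The groups did not overlap for Rad51c, Xpa or Xrcc4. Over the 44 genes, the 2 groups did not overlap for 13, beside 39.8% of all genes tested.

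Under anti-PD-1, Rnf168 was the 1 repair gene of 44 higher in MC38 KO and 8 were lower, beside 12.1% of 14209 genes called either way and 7.05% called lower. The lower ones were Rad50, Wrn, Fanca, Lig3, Xrcc5, Bard1, Brca2 and Msh6. The median of the 44 was -0.15, against 0.002 over all genes, and 24 of 44 had groups that did not overlap, beside 34.1% of all genes. Rad50, the arm of the complex that tethers broken ends, stood at 19, 19.8 and 15.9 FPKM in WT and at 13.5, 13.3 and 13.4 in KO (-0.41 ± 0.09, limma adjusted p = 0.0182). Fanca stood at 4.66, 5.37 and 3.96 against 2.91, 3.12 and 3.53 (-0.43 ± 0.11, limma adjusted p = 0.0235). In both genes the KO libraries lay below every WT library.

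Lig3, the ligase that works with XRCC1 in base excision repair, stood at 7.48, 7.91 and 7.15 FPKM in WT and at 5.29, 5.86 and 5.86 in KO under anti-PD-1 (-0.35 ± 0.09, limma adjusted p = 0.0254). Xrcc5 stood at 25.7, 22.1 and 23 against 19.9, 16.7 and 15.8 (-0.42 ± 0.11, limma adjusted p = 0.0281). Bard1 and Brca2, partners in recombination, and Msh6, a subunit of the main mismatch sensor, differed by -0.32 ± 0.08, -0.43 ± 0.12 and -0.29 ± 0.08 (limma adjusted p = 0.0352, 0.0446 and 0.047). Of these 9 calls, that of Rnf168 held in each alternative. The count was 1 gene without WT anti-PD-1 replicate 1, 3 without replicate 2 and 8 without replicate 3 of that group. Of all genes, 6.64%, 9.06% and 7.52% were called in these fits. Leaving out a KO library of that treatment gave 4, 2 and 3 for replicates 1, 2 and 3. The shares of all genes were then 7.73%, 7.98% and 5.95%. With no filter on low values the count was 4 repair genes, beside 3.77% of all genes.

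Averaged over both treatments, 4 of 44 were higher and 10 lower in MC38 KO, beside 27.4% of all genes called. Fancd2, Lig3, Bard1 and Msh6, each called under 1 treatment, were not called in the average. Newly called were Rad51ap1 and Xpc as higher (0.29 ± 0.08 and 0.20 ± 0.07, limma adjusted p = 0.0213 and 0.0401). Lig1 and Nhej1 were newly called as lower (-0.27 ± 0.07 and -0.35 ± 0.12, limma adjusted p = 0.019 and 0.0443). Lig1 joins Okazaki fragments and Nhej1 encodes XLF of end joining. Rnf168, Wrn, Fancl, Fanca, Rad50, Xpa and Lig1 held in all 18 alternatives. Without KO anti-PD-1 replicate 3 the count was 8, beside 22% of all genes. With quantile normalization it was 2 higher and 13 lower, beside 27.5% of all genes. No repair gene passed the test for the genotype by treatment interaction, in which 2.44% of all genes did (1.81% upward); 10 of the 44 and 2771 of the 14209 genes had an unadjusted p under 0.05 by limma, and no other tool was run. Lig3 came nearest (-0.37 ± 0.12, limma adjusted p = 0.138). Genes called under 1 treatment alone are thus not shown to differ between treatments.

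**Figure D2:**
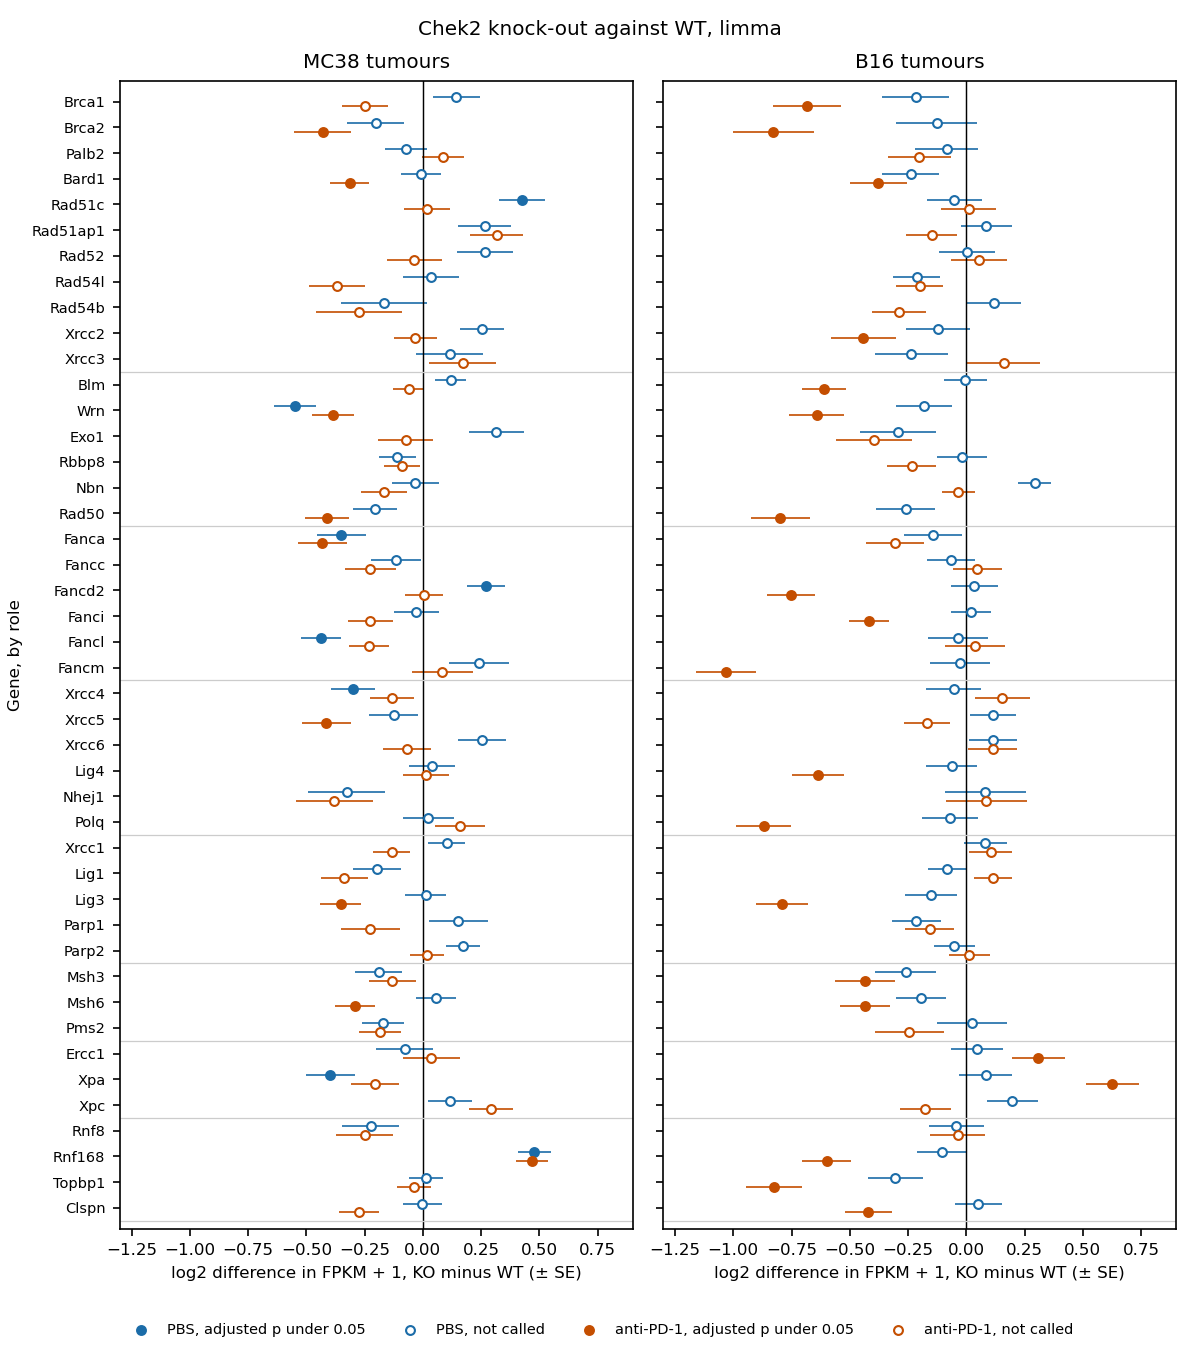
Log2 differences in FPKM + 1, KO minus WT, with their SE for the 44 repair genes in MC38 (left) and B16 (right); blue is PBS, orange anti-PD-1, and filled points passed an adjusted p under 0.05. In MC38 Rnf168 lies near 0.48 under both treatments and Wrn near -0.55 and -0.39, while in B16 no blue point is filled and Fancm reaches -1.03 under anti-PD-1.

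Of 75 further repair genes listed beside the 44, 73 were tested in MC38. Under PBS 5 were higher and 10 lower in KO, and under anti-PD-1 2 were higher and 9 lower. Gtf2h1, a subunit of the transcription and repair factor TFIIH, stood at 26.7, 24.8 and 26 FPKM in WT and at 42.1, 40 and 36.9 in KO under PBS (0.60 ± 0.07, limma adjusted p = 0.000297). Recql4, a RecQ helicase like Wrn, was also higher (0.68 ± 0.09, limma adjusted p = 0.000949). Polm, a polymerase of end joining, and Neil3, a glycosylase of damaged bases, were lower (-0.86 ± 0.15 and -0.57 ± 0.11, limma adjusted p = 0.00299 and 0.00503). The helicases Wrn and Recql4 therefore moved in opposite directions.

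Other measures differed between the same MC38 groups. The transcription factor E2f1 stood at 18, 19.7 and 21.7 FPKM in WT and at 11.3, 12.9 and 11.2 in KO under PBS (-0.70 ± 0.09, limma adjusted p = 0.000588) and was lower under anti-PD-1 too (-0.75 ± 0.09, limma adjusted p = 0.000852). Of 26 S phase genes 2 were higher and 6 lower under PBS, and 6 were lower under anti-PD-1. Mki67 was not called in either (limma adjusted p = 0.858 and 0.169). The summed FPKM of 14 immune markers was 1129 to 1355 in WT and 359 to 831 in KO under PBS, with 8 of 13 tested called lower, and 1062 to 1307 against 1117 to 1578 under anti-PD-1, with none called. The 6 fibroblast markers summed to 709 to 916 against 401 to 464 under PBS and to 412 to 785 against 346 to 829 under anti-PD-1. In such bulk samples fewer cells of a type and less RNA per cell cannot be told apart, and the part of these differences in the repair gene results was not tested.

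Anti-PD-1 against PBS changed no repair gene in MC38 WT by the test, where no gene of 14209 was called (0%). Of the 44, 9 had an unadjusted p under 0.05 by limma, beside 1953 of all genes, and 37 had a positive difference, beside 7783 of all genes. Their median was 0.09, beside 0.02 over all genes. Exo1, the exonuclease that extends resection, came nearest, at 3.31, 2.52 and 2.18 FPKM under PBS against 3.93, 4.26 and 3.25 under anti-PD-1 (0.40 ± 0.12, limma adjusted p = 0.194), with 1 PBS library above the lowest treated one. In MC38 KO none of the 44 was called either, beside 8.99% of all genes (6.12% higher and 2.86% lower). The groups did not overlap for 7 of the 44, beside 30.4% of all genes, and 6 had an unadjusted p under 0.05 by limma, beside 3373 of all genes. Bard1 came nearest, at 4.34, 4.08 and 4.54 under PBS against 3.39, 3.57 and 3.74 under anti-PD-1 (-0.22 ± 0.08, limma adjusted p = 0.144), with no overlap.

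In B16 under PBS the knock-out was called for none of the 44 repair genes, beside 0.47% of the 13627 genes tested (0.279% higher and 0.191% lower), and 2 of the 44 had an unadjusted p under 0.05 by limma, beside 1810 of all genes. Nbn, the subunit that brings the RAD50 complex to ATM, came nearest, at 15.6, 15.7 and 15 FPKM in WT and 19, 17.7 and 20.8 in KO (0.29 ± 0.07, limma adjusted p = 0.113). The groups did not overlap for Nbn, nor for 10 of the 44 in all, beside 21.2% of all genes. The leading MC38 genes, given here after their values were seen, were not called. Rnf168 stood at 12.5, 14.5 and 13.3 in WT and at 10.9, 12.7 and 13.7 in KO (-0.11 ± 0.11, limma adjusted p = 0.733), and these overlapped. Wrn stood at 3.08, 3.68 and 3.73 against 2.66, 3.48 and 2.77, which overlapped too. Anti-PD-1 in B16 WT was called for no gene (0%). None of the 44 had an unadjusted p under 0.05 there and each had an adjusted p of 1 by limma. The smallest unadjusted p was that of Parp2, a second PARP enzyme of break sensing, at 9.17, 10.8 and 9.93 under PBS against 9.38, 8.77 and 8.38 under anti-PD-1, which overlapped.

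Under anti-PD-1 the B16 KO tumours had 18 repair genes lower and 2 higher than WT, beside 40.8% of all 13627 genes called either way and 25.9% called lower. The median of the 44 was -0.24, against -0.05 over all genes. Rescaled to equal sums of protein-coding genes, the split was 28 lower and 1 higher. Only protein-coding genes were tested then, 11149 in all, with a median of -0.23 and 45.5% called. By role, the lower ones were Brca1, Brca2, Bard1 and Xrcc2 of recombination, Blm, Wrn and Rad50 of resection and the helicases, Fancd2, Fanci and Fancm of the Fanconi pathway, Lig4 and Polq of end joining, Lig3, the mismatch genes Msh3 and Msh6, and Rnf168, Topbp1 and Clspn of signalling. The higher ones were Xpa and Ercc1 of nucleotide excision repair. For 28 of 44 the groups did not overlap, beside 50.8% of all genes.

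Fancm, the translocase that anchors the Fanconi core complex on DNA, stood at 2.57, 3.04 and 3.37 FPKM in B16 WT under anti-PD-1 and at 0.757, 1.23 and 0.884 in KO (-1.03 ± 0.13, limma adjusted p = 0.000173). Fancd2 stood at 11.1, 11.2 and 10.5 against 5.24, 6.16 and 6.94 (-0.75 ± 0.10, limma adjusted p = 0.00029). Polq, the polymerase of end joining at short homologies, stood at 2.95, 2.7 and 3.18 against 1.02, 1.25 and 1.19 (-0.87 ± 0.12, limma adjusted p = 0.000319). Each KO library was below each WT library for these genes. The same held for a ligase and a signalling gene. Lig3 stood at 10.7, 10.3 and 12 against 5.09, 7.27 and 5.66 (-0.79 ± 0.11, limma adjusted p = 0.000374). Topbp1, which switches on the kinase ATR at stalled forks, stood at 12.5, 12.4 and 14.4 against 5.44, 7.86 and 7.75 (-0.83 ± 0.12, limma adjusted p = 0.000405). Xpa and Ercc1, both of nucleotide excision repair, went the other way, while Xpc of that pathway was not called. Xpa stood at 4.1, 5.76 and 5.57 in WT and 8.21, 8.14 and 8.92 in KO (0.63 ± 0.11, limma adjusted p = 0.00153). Ercc1, the partner of the XPF nuclease, stood at 4.66, 3.67 and 4.2 against 5.21, 5.47 and 5.51 (0.31 ± 0.11, limma adjusted p = 0.0471) and kept its call in 2 of 13 alternatives.

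These differences moved with transcript length, for the repair genes as for all genes. Over all genes the median difference was 0.21 for transcripts under 2000 bases, 0.02 from 2000 to 4000, -0.26 from 4000 to 6000, -0.49 from 6000 to 8000 and -0.69 over 8000. Both higher repair genes have transcripts under 2000 bases (1241 for Xpa and 1375 for Ercc1). Of the lower ones, 1 of 17 genes from 2000 to 4000 bases was called, 12 of 17 from 4000 to 6000, 3 of 5 from 6000 to 8000 and both over 8000 (Brca2 and Polq). With the length trend removed, 9 were lower and 1 higher, beside 27.9% of all genes called. With the trends of length and GC content removed, 6 were lower and 2 higher, beside 24.2%. The genes called lower in the deposited values and after both corrections were Fancm (-0.47 and -0.37), Topbp1 (-0.50 and -0.43), Rad50 (-0.48 and -0.39), Fancd2 (-0.40 and -0.32), Lig3 (-0.38 and -0.37) and Rnf168 (-0.37 and -0.26). Xpa stayed higher (0.40 and 0.37), and with both trends removed Xrcc4 was called higher too (0.38). Brca1 lost its call after the length correction, as did Brca2, Wrn, Polq, Clspn, Fanci, Msh3, Msh6, Bard1 and Ercc1.

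**Figure D3:**
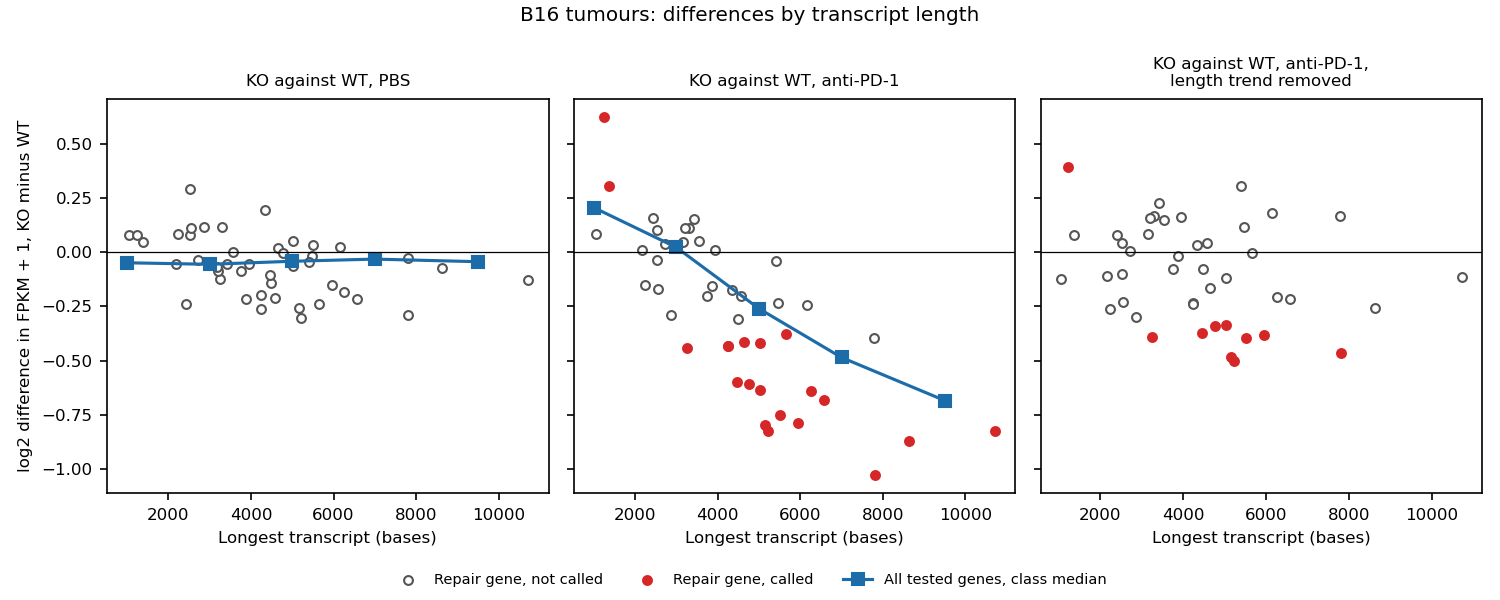
Log2 differences in FPKM + 1, KO minus WT, of the 44 repair genes in B16 against the length of the longest transcript, under PBS (left), under anti-PD-1 (middle) and under anti-PD-1 with the length trend of each library removed (right); red points passed an adjusted p under 0.05 and blue squares are medians of all tested genes by length class. Under anti-PD-1 the class medians fall from 0.21 to -0.69 and the repair genes fall with them, whereas under PBS the medians stay between -0.06 and -0.03.

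Other gene groups moved in the same B16 libraries. Of 74 further repair genes tested, 6 were higher and 28 lower in KO under anti-PD-1. The lowest p-values were those of Rif1, the partner of 53BP1 that restrains resection, at 11.9, 12.6 and 13.5 FPKM in WT and 3.55, 4.52 and 4.01 in KO, and of Rev3l, the catalytic subunit of polymerase zeta (-1.45 ± 0.11 and -1.47 ± 0.13, limma adjusted p = 1.34e-05 and 2.53e-05). Rpa3 and Rad23b were higher (0.39 ± 0.08 and 0.36 ± 0.08, limma adjusted p = 0.00357 and 0.00612). Of 24 mitosis genes 14 were lower and 1 higher, and Mki67 stood at 49, 60.1 and 60.5 against 19.1, 24.9 and 25.9, whereas of 26 S phase genes 5 were lower and 2 higher and Pcna stood at 108, 101 and 115 against 119, 134 and 121 (0.20 ± 0.08, limma adjusted p = 0.0567). Immune markers summed to 92.2 to 409 in WT and 376 to 993 in KO, with 3 of 9 tested called higher. Fibroblast markers summed to 10.6 to 138 against 45.6 to 313, and 5 skeletal muscle markers to 1.33 to 2.45 against 8.79, 144 and 1633. The part of these groups in the repair gene results was not tested.

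Anti-PD-1 against PBS within B16 KO gave 15 repair genes lower and 2 higher, beside 43.9% of all genes called, and 23 whose groups did not overlap, beside 53.8% of all genes. This comparison and the one above share the 3 libraries that stand apart. Fancd2 stood at 10.3, 11.3 and 11.4 FPKM under PBS and Fancm at 2.55, 3.02 and 2.49, against the anti-PD-1 values given above (-0.76 ± 0.10 and -0.92 ± 0.13, limma adjusted p = 0.000285 and 0.000358). Polq stood at 2.35, 2.69 and 3.19, Blm, the helicase of Bloom syndrome, at 3.77, 3.97 and 4.37 and Lig4, the ligase of end joining, at 6.16, 6.29 and 6.87 under PBS. Under anti-PD-1 Blm stood at 2.16, 2.69 and 2.26 and Lig4 at 3.3, 3.84 and 3.79 (-0.58 ± 0.09 and -0.68 ± 0.11, limma adjusted p = 0.000749 and 0.000796). Nbn, Xrcc5 and Fanci were lower as well. With the length trend removed 9 were lower and none higher, beside 31.7% of all genes called. With length and GC removed 4 were lower and 3 higher, beside 27.2%. Of these calls, 7 with the length trend removed and 3 with both trends removed were also calls of the main fit. The latter 3 were Fancd2, Nbn and Xrcc5, which were lower in all of these fits. The genes called higher with both trends removed were thus not those called higher in the main fit. Rescaled to equal sums of protein-coding genes, the split in this comparison was 25 lower and none higher. The 11149 protein-coding genes tested then had a median of -0.18, and 45.6% of them were called.

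The interaction in B16 called 11 repair genes lower and 1 higher, beside 23.5% of all genes (8.9% upward). Quantile normalization gave 7 lower and 1 higher, and rescaling to protein-coding genes 18 lower and none higher. With the length trend removed it called Fancd2 and Nbn, beside 12% of all genes, and with length and GC removed none, beside 9.5%. Averaged over treatments, 17 were lower and 1 higher in B16 KO, beside 26.5% of all genes (7.54% higher), and with the length trend removed Topbp1, Rad50, Lig3 and Rnf168 were lower, beside 16.9% of all genes called. With quantile normalization the average gave 13 lower and 3 higher, and with protein-coding genes rescaled 23 lower and none higher. For the interaction and the average, the shares of all genes called in the quantile-normalized and rescaled fits are not given here. The counts of those fits are therefore not read as results about the repair genes.

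The averaged knock-out effect itself differed between the lines for 16 repair genes, 12 of them with the more positive difference in MC38 and 4 in B16, beside 31.3% of the 15655 genes tested in both lines. This split depended on scaling: it was 7 and 7 with quantile normalization and 18 and 1 with protein-coding genes rescaled. With the length trend removed 6 were more positive in MC38 and 8 in B16. The shares of all genes called in these fits are not given here, so the splits are no result about the repair genes. For Rnf168 the difference was 0.83 ± 0.09 (limma adjusted p = 2.14e-06), made of a rise in MC38 (0.47 ± 0.05, limma adjusted p = 9.99e-05) and a fall in B16 (-0.35 ± 0.07, limma adjusted p = 0.00647). The difference held in all 31 alternatives, while the fall in B16 was -0.22 with the length trend removed and lost its call with length and GC removed (-0.17, limma adjusted p = 0.0645). Xpa had the reverse signs, -0.30 ± 0.07 in MC38 and 0.35 ± 0.08 in B16 (limma adjusted p = 0.0116 and 0.00856), and the lines differed by -0.66 ± 0.11 (limma adjusted p = 0.000173). With the length trend removed the B16 value of Xpa was 0.26 and no longer called (limma adjusted p = 0.0659). Brca2, Rad50 and Wrn were lower in both lines on average, of which Rad50 kept its call in B16 with the length trend removed. With the KO effect under PBS alone and the 3 B16 libraries that stand apart left out of the fit, chosen after seeing the data, 2 of the 44 were called, beside 11.1% of all genes. Rnf168, with 0.58 ± 0.12, was the 1 gene shared with the 16, and Rad51c, with 0.48 ± 0.14, was not among them (limma adjusted p = 0.00643 and 0.0396). Xpa then differed by -0.48 with a limma adjusted p of 0.0631. In both lines together, 18 of the 44 were called in none of the 8 comparisons of 2 groups within a line. Among them were Parp1, Parp2, Xrcc1, Xrcc6, Rad52 and Palb2. Lig1, Nhej1, Rad51ap1 and Xpc were also among them, though called in the MC38 average, as was Exo1, called in the B16 average. The same count was not made over all genes, so it is no result about repair genes.

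**Figure D4:**
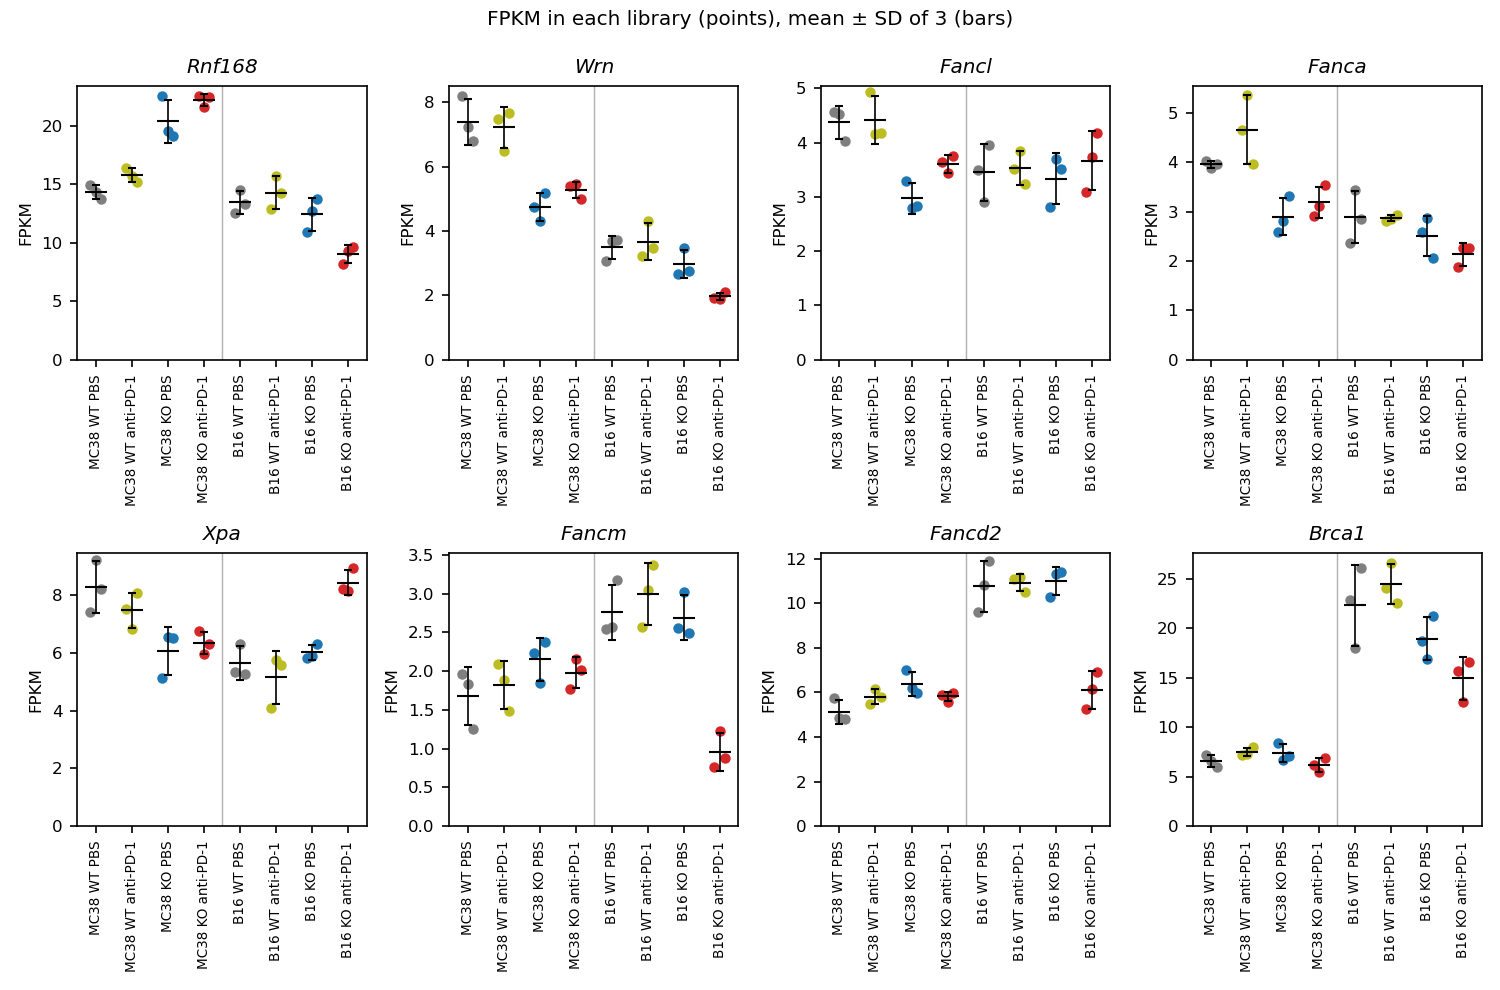
FPKM of 8 repair genes in each of the 24 libraries (points) with the mean and SD of the 3 libraries of a group (black bars), MC38 groups left of the grey line and B16 groups right of it. Rnf168 is at 19.1 to 22.5 in the MC38 KO libraries against 13.7 to 16.4 in WT and at 8.21 to 9.66 in B16 KO under anti-PD-1, Xpa is at 8.14 to 8.92 in that last group, and Brca1 separates the lines.

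Between the untreated WT tumours of the lines, 9 of 44 repair genes were higher in MC38 and 22 lower, beside 62.3% of all genes called. Line and any batch of library making cannot be told apart. Brca1 stood at 7.18, 6.63 and 5.93 FPKM in MC38 and 22.9, 18 and 26.1 in B16 (-1.61 ± 0.13, limma adjusted p = 1.59e-09). Lig4 stood at 2.27, 2.45 and 1.95 against 7.23, 5.49 and 7.74 (-1.27 ± 0.10, limma adjusted p = 1.64e-09). Fancd2, Xpc, the sensor of distorted helices, and Xrcc5 were also lower in MC38, by -0.94 ± 0.09, -1.02 ± 0.10 and -0.91 ± 0.10 (limma adjusted p = 2.74e-08, 3.27e-08 and 2.71e-07). Of the 6 resection and helicase genes 2 were higher in MC38 and 2 lower, and of the 4 signalling genes 2 were higher. Wrn stood at 8.19, 7.22 and 6.79 in MC38 and 3.08, 3.68 and 3.73 in B16 (0.90 ± 0.10, limma adjusted p = 2.26e-07). Clspn, which encodes the CHK1 adaptor claspin, stood at 10.9, 9.53 and 8.53 against 5.2, 5.93 and 4.96, and Rbbp8, which encodes the resection factor CtIP, at 4.88, 4.87 and 4.36 against 2.44, 3.05 and 2.74 (0.74 ± 0.09 and 0.61 ± 0.09, limma adjusted p = 7.01e-07 and 4.41e-06). None of these pairs of groups overlapped. The immune markers summed to 1129 to 1355 in MC38 and 119 to 209 in B16, and their part was not tested.

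The upstream sequences of 35 of the 44 genes were in the RefSeq table of promoters (GRCm38.p6, 250 bases before to 50 after each start), and Exo1, Rbbp8, Rad54b, Xrcc2, Xpc, Nbn, Wrn, Rad50 and Fancd2 were not. Both strands were searched for an E2F core (TTGGCGC or TTCCCGC), a CHR element (TTTGAA or TTCGAA) and a CCAAT box (CCAAT), of which the reverse of the last can overlap the first. An E2F core was in 11 of 35 windows (31.4%) beside 5.62% of 32851 windows in the table: those of Brca2, Bard1, Rad51c, Rad52, Xrcc4, Xrcc6, Fancm, Msh3, Rnf8, Rnf168 and Topbp1. A CHR element was in 8.57% beside 17.1%, and a CCAAT box in 42.9% beside 33.8%. The repair genes have 1 window each, the one nearest the annotated gene start, while the share beside them counts every window in the table. The 2 shares are therefore not drawn in the same way. The start sites of the windows used for Xrcc6 and Fancc lay 28534 and 65533 bases from the annotated gene start. A match is a description and not a site of binding. In MC38 KO under PBS, 2 of the 11 genes with an E2F core were higher and 1 lower. Of the other 24 none was higher and 3 were lower, beside 11.9% of all genes higher and 11.6% lower. In B16 KO under anti-PD-1, 6 of the 11 were lower and none higher, and of the other 24, 8 were lower and 2 higher, beside 25.9% of all genes lower and 14.9% higher. Of those 6, Fancm, Rnf168 and Topbp1 were also called with the length trend removed, and Brca2, Bard1 and Msh3 were not.

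The 4 sequences that follow are the bases upstream of Brca1 and Clspn, among the genes that differed most between the lines, and of Rnf168 and Topbp1, chosen after their values were seen as the gene that differed most between the lines in its knock-out effect and a gene lower in B16 KO with and without the length trend. They run 5′ to 3′ on the strand of the gene in GRCm38 and hold no annotated exon. Capitals mark a CCAAT box in Brca1 and Clspn (ATTGG where it lies on the other strand) and an E2F core in Rnf168 and Topbp1 (GCGGGAA on the other strand).
Brca1, chr11:101551956-101552148, minus strand: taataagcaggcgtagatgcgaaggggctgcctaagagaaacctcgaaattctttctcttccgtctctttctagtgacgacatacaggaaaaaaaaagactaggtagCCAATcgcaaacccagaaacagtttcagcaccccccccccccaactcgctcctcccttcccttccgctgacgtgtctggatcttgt
Clspn, chr4:126556735-126556934, plus strand: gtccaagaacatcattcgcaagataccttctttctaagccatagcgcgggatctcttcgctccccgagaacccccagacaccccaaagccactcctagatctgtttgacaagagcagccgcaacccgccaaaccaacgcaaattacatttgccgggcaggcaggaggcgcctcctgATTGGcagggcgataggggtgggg
Rnf168, chr16:32277259-32277458, plus strand: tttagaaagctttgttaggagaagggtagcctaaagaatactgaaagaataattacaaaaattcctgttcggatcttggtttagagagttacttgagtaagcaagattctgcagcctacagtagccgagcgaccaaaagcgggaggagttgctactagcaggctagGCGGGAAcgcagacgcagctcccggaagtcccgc
Topbp1, chr9:103305083-103305214, plus strand: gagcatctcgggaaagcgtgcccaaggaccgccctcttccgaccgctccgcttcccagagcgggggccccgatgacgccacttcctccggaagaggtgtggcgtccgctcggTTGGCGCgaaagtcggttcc
The windows of Brca1 and Clspn hold 1 CCAAT box and no E2F core each, and those of Rnf168 and Topbp1 1 E2F core and no CCAAT box each.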

How the data were processed

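Total RNA of MC38 and B16 tumours was sequenced in 24 libraries, 8 groups of 3 named by the condition field of the labels. FastQC, STAR 2.5, Cuffnorm and DESeq are named with the build mm10 in the submitters' processing notes, which give them neither role nor sequence. The deposited values were taken as FPKM from their properties, as neither the labels nor the file headers name the unit. They were not counts, so no count test was run.

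IDs were named from GENCODE (55154 of 55335 matched). Values were analysed as log2(FPKM + 1) with limma 3.58.1 in R 4.3.3, 1 mean per group, trended variances, and a filter that kept genes reaching 1 FPKM in 3 or more libraries of the fit (12 within a line, 24 over both). All 44 repair genes passed. Benjamini-Hochberg adjustment ran over all genes tested, and genes under 0.05 were called. The steps were tested on simulated data. Libraries of a group correlated across genes at 0.979 to 0.992, and no pair of 276 shared more than 0.027% of nonzero values. Depth was estimated, so no count interval is given.

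The members and gene lists were chosen with earlier results of these data known. Called genes were named in each comparison, with values in every library for at most 5 a direction. The alternative with protein-coding genes rescaled tested those genes alone. Alternatives were quantile normalization, protein-coding genes rescaled to equal sums, a pseudocount of 0.1, no filter, the compared libraries alone, each library left out and, chosen after seeing the data, removal of length or of length and GC trends and the line difference under PBS.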

Additional observations from a re-analysis of the deposited data

Results flagged for a closer look

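In B16 the knock-out effect under anti-PD-1 differed from that under PBS for 12 of the 44 repair genes. The test was the interaction term of limma at an adjusted p under 0.05, which called 23.5% of all genes. Its log2 values were Lig3 (-0.64), Lig4 (-0.58), Fancd2 (-0.79), Fanci (-0.43), Fancm (-1.0), Blm (-0.61), Xpa (0.54), Nbn (-0.33), Rnf168 (-0.49), Topbp1 (-0.52), Clspn (-0.47) and Polq (-0.80). Xpa was the 1 gene of these with a positive value. With the transcript length trend removed, Fancd2 and Nbn still passed, and with the trends of length and GC content removed no repair gene did.

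The averaged knock-out effect differed between the lines for 16 of the 44 repair genes by the same kind of test, beside 31.3% of all genes. The log2 differences, MC38 minus B16, were Brca1 (0.40), Rad51ap1 (0.32), Xrcc2 (0.39), Lig1 (-0.28), Lig3 (0.30), Lig4 (0.38), Fancd2 (0.50), Fancl (-0.34), Fancm (0.69), Blm (0.34), Exo1 (0.46), Xpa (-0.66), Nbn (-0.23), Rnf168 (0.83), Topbp1 (0.55) and Polq (0.56). Lig1, Fancl, Xpa and Nbn had the negative values. The split of signs depended on scaling, as given above. Rnf168 also passed in the fit without the B16 KO anti-PD-1 libraries.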

How the results depend on the processing

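No paired analysis was possible because the labels state no pairing between libraries of different groups. The replicate numbers used here are not from the labels and follow the order of the samples. With no filter on low values, MC38 KO against WT gave 5 repair genes under PBS, 4 under anti-PD-1 and 9 on average. The main counts were 8, 9 and 14. Of all genes, 8.01%, 3.77% and 10.2% were called with no filter, against 23.4%, 12.1% and 27.4% in the main fit. With the compared libraries alone the counts were 4 under PBS and 5 under anti-PD-1, beside 17.7% and 10% of all genes. With the transcript length trend removed, B16 counts were 10 for KO against WT under anti-PD-1, 9 for anti-PD-1 against PBS in KO, 4 for the average and 2 for the interaction, and with length and GC removed 8, 7, 4 and 0, against 20, 17, 18 and 12. For B16 KO against WT under anti-PD-1, 27.9% and 24.2% of all genes were called in these 2 fits, against 40.8%. For anti-PD-1 against PBS in B16 KO, 31.7% and 27.2% were called, against 43.9%. Of the 9 and 7 repair genes called there, 7 and 3 were also called in the main fit, in the same direction. The difference between lines under PBS gave 2 in place of 16.

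With 1 library left out, counts ran from 4 to 8 for MC38 KO against WT under PBS, beside 14.8% to 20% of all genes. Under anti-PD-1 they ran from 1 to 8, beside 5.95% to 9.06%, and on average from 8 to 14, beside 22% to 25.9%. For the B16 interaction they ran from 5 to 13, beside 15.9% to 24.3%. The main fits called 23.4%, 12.1%, 27.4% and 23.5% of all genes, in the same order. For B16 KO against WT under anti-PD-1 the counts were 16 to 19, beside 30.2% to 39.2% of all genes. For anti-PD-1 against PBS in B16 KO they were 15 to 18, beside 33.1% to 41.2%. The B16 average gave 15 to 19, beside 19.6% to 26.1%. The difference between lines in the KO effect gave 13 to 17, beside 28.2% to 32%. MC38 against B16 gave 25 to 29, beside 58.3% to 59.5%. Counts were 0 where the main count was 0, and the share of all genes there did not pass 9.48%. The B16 interaction count was 5 without KO anti-PD-1 replicate 1, 6 without KO PBS replicate 3, and 7 when replicate 1 of WT under PBS, or replicate 2 or 3 of WT under anti-PD-1, was left out.

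Of single-gene results under alternatives, 1933 kept direction and call, 454 kept direction and lost the call, and 6 reversed, each with length and GC removed. For KO against WT under anti-PD-1 in B16 these were Ercc1 (-0.0723), Bard1 (0.0784) and Brca2 (0.0264), and for anti-PD-1 against PBS in B16 KO Ercc1 (-0.13), Wrn (0.15) and Brca2 (0.0374). The causes were not tested beyond the correction itself. Depth was estimated from FPKM steps, so differences in genes near 1 FPKM, such as Palb2 and Fancc, carry an unknown counting error.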
